A study of Arabidopsis thaliana with 22 samples.

Results

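The stress and senescence type SAUR genes are *SAUR30* (AT5G53590), *SAUR32* (AT2G46690), *SAUR36* (AT2G45210), *SAUR41* (AT1G16510), *SAUR55* (AT5G50760), *SAUR59* (AT3G60690), *SAUR71* (AT1G56150), *SAUR72* (AT3G12830), *SAUR76* (AT5G20820) and *SAUR78* (AT1G72430), 10 genes taken by their identifiers from the 80 annotated SAUR genes of *Arabidopsis thaliana* and from 27416 genes in the count tables. Their mRNA was measured by RNA-seq in whole 5-day-old seedlings. Per the labels, these were stratified for 2 days and grown at 22 °C in days of 16 h light with 8 h dark. The genotypes were Col-0, the ecotype used as wild type, *hda15*, *ahl22*, *frs7 frs12*, and *ahl22* combined with the latter as *ahl22 frs7 frs12*. AHL22 is an AT-hook protein of the nuclear matrix, FRS7 and FRS12 are transcriptional repressors that act with it, and HDA15 is a histone deacetylase. All mutants are loss-of-function lines in the Col-0 background: *ahl22-1* and *hda15-1* are T-DNA lines, *frs7-1 frs12-1* is a double mutant, and *ahl22 frs7 frs12* was made by crossing. Each mutant is thus 1 line, with no second allele or complemented line among these libraries. Each mutant has 2 libraries. There are 2 Col-0 pairs, namely the pair in the tables of *ahl22*, *frs7 frs12* and *hda15* (the first Col-0 pair, which these comparisons share) and that in the table of *ahl22 frs7 frs12* (the second Col-0 pair). The columns of the second pair are named Col but match no sample title, and their counts differ from those of the first pair. The labels thus give neither replicates nor growth conditions for the second pair. The 12 libraries hold 12537767 to 21400580 counts, of which 1266 to 3926 fall on the 10 genes, so that sampling error alone limits the genes with few counts.

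SAUR proteins are small, plant-specific proteins, and many of their genes respond to auxin within minutes. Those best studied bind and inhibit PP2C.D phosphatases, which keeps the plasma membrane H+-ATPase phosphorylated and active, acidifies the wall and lets cells expand. A minority of the family is instead known from abscisic acid, ethylene, drought or senescence. Among these genes, *SAUR36*, also named *SAG201*, promotes leaf senescence, *SAUR32* is known from abscisic acid signalling and drought, *SAUR41*, *SAUR71* and *SAUR72* form a subfamily with *SAUR40* that is known from cell expansion and abscisic acid, and *SAUR76* and *SAUR78* are known, with *SAUR77*, to interact with ethylene receptors.

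All 10 genes have 1 exon in the TAIR10.1 annotation, and 0 of them overlap another gene. Their proteins are 110 to 183 residues long. *SAUR71* and *SAUR72* share 78.2% of aligned residues, and *SAUR76* and *SAUR78* share 58%. The closest SAUR protein outside the 10 is *SAUR77* for *SAUR78* (73.5% identity), *SAUR40* for *SAUR41* (65.9%) and *SAUR31* for *SAUR32* (64.3%). No transcript matched another gene over at least 150 bases at 95% identity or more, the closest match being 84.8% between *SAUR32* and AT3G61900, so reads could be told apart. The 250 bases before the start of 4 genes are shown from the RefSeq TAIR10.1 sequence, 5′ to 3′ along the gene, because these genes carry the main differences described below or hold a motif that was searched. In *SAUR78*, the capitals mark the sites of the primers that the study used for ChIP-qPCR at this promoter, 248 to 229 and 174 to 155 bases before the start. In *SAUR36* and *SAUR59*, the capitals mark the abscisic acid response motif ACGTGNC and the G-box CACGTG. *SAUR55*, whose level varied most over the libraries, held none of the motifs searched.
SAUR78, chr1:27265807-27266056, minus strand: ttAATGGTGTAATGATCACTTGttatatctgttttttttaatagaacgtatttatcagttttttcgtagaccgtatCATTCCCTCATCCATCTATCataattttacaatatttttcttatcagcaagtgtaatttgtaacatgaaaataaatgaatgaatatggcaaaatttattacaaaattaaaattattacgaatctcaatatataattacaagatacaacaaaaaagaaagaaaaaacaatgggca
SAUR55, chr5:20644275-20644524, plus strand: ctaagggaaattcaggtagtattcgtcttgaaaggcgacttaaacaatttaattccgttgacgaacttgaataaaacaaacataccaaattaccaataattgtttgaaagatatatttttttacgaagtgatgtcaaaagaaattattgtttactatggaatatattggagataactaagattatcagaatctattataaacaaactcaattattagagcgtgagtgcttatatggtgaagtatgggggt
SAUR36, chr2:18641313-18641562, plus strand: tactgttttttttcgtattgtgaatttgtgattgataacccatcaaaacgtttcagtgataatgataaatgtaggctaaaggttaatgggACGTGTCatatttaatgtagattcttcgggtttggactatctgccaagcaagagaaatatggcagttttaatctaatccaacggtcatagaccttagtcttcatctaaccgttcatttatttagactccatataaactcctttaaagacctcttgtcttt
SAUR59, chr3:22434614-22434863, plus strand: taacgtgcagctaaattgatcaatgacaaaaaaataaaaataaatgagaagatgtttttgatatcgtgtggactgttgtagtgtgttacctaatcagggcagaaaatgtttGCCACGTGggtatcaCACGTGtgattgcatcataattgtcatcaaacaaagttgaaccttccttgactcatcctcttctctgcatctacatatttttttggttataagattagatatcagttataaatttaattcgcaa

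Motifs were searched on both strands of this 250-base window in 27443 protein-coding genes. The auxin response element TGTCTC was in 0 of the 10 promoters, in 7 of the 70 other SAUR promoters and in 10.9% of all promoters. The element CACATG, bound by PIF factors, was likewise in 0 of the 10, against 32 of 70 other SAUR promoters and 11.1% of all. ACGTGNC was in 2 of the 10 (*SAUR36*, 160 to 154 bases before the start, and *SAUR59*, 139 to 133 bases before it), in 3 of 70 other SAUR promoters and in 8.57% of all. CACGTG was in *SAUR59* at 2 sites, 137 to 132 and 124 to 119 bases before the start, of which the former overlaps the ACGTGNC match, in 0 of 70 other SAUR promoters and in 6.49% of all. The auxin response variant TGTCGG was in 0 of the 10 and in 4.16% of all promoters. The site CACGCGC of FHY3 and FAR1, relatives of *FRS7* and *FRS12*, was in 0 of the 10, in 0 of 70 other SAUR promoters and in 1.06% of all. The W-box TTGACC of WRKY factors was in 0 of the 10, in 10 of 70 and in 12.2% of all. A match is only a run of letters, and binding was not measured here.

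Levels are given in CPM (counts scaled to library size with TMM factors), and RPKM (CPM per kilobase of exon) is used where genes are compared. *SAUR78* was the most abundant of the 10, with a mean of 46.6 RPKM over the 12 libraries, above 92.8% of genes. *SAUR76* was the least abundant, with a mean of 0.463 RPKM and 0 to 19 counts per library. The other 8 lay between 3.79 RPKM (*SAUR30*) and 17.5 RPKM (*SAUR32*). The median was 7.27 RPKM over the 10 genes and 2.80 RPKM over the 70 other SAUR genes, of which 23 were below 1 RPKM. Summed over the 10 genes, the level was 205 and 181 CPM in *hda15* and 98.8 to 117 CPM in the 10 other libraries. *SAUR78* alone held 50.8% and 51.4% of this sum in *hda15* and 35.3% to 53.5% in the others.

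**Figure D1:**
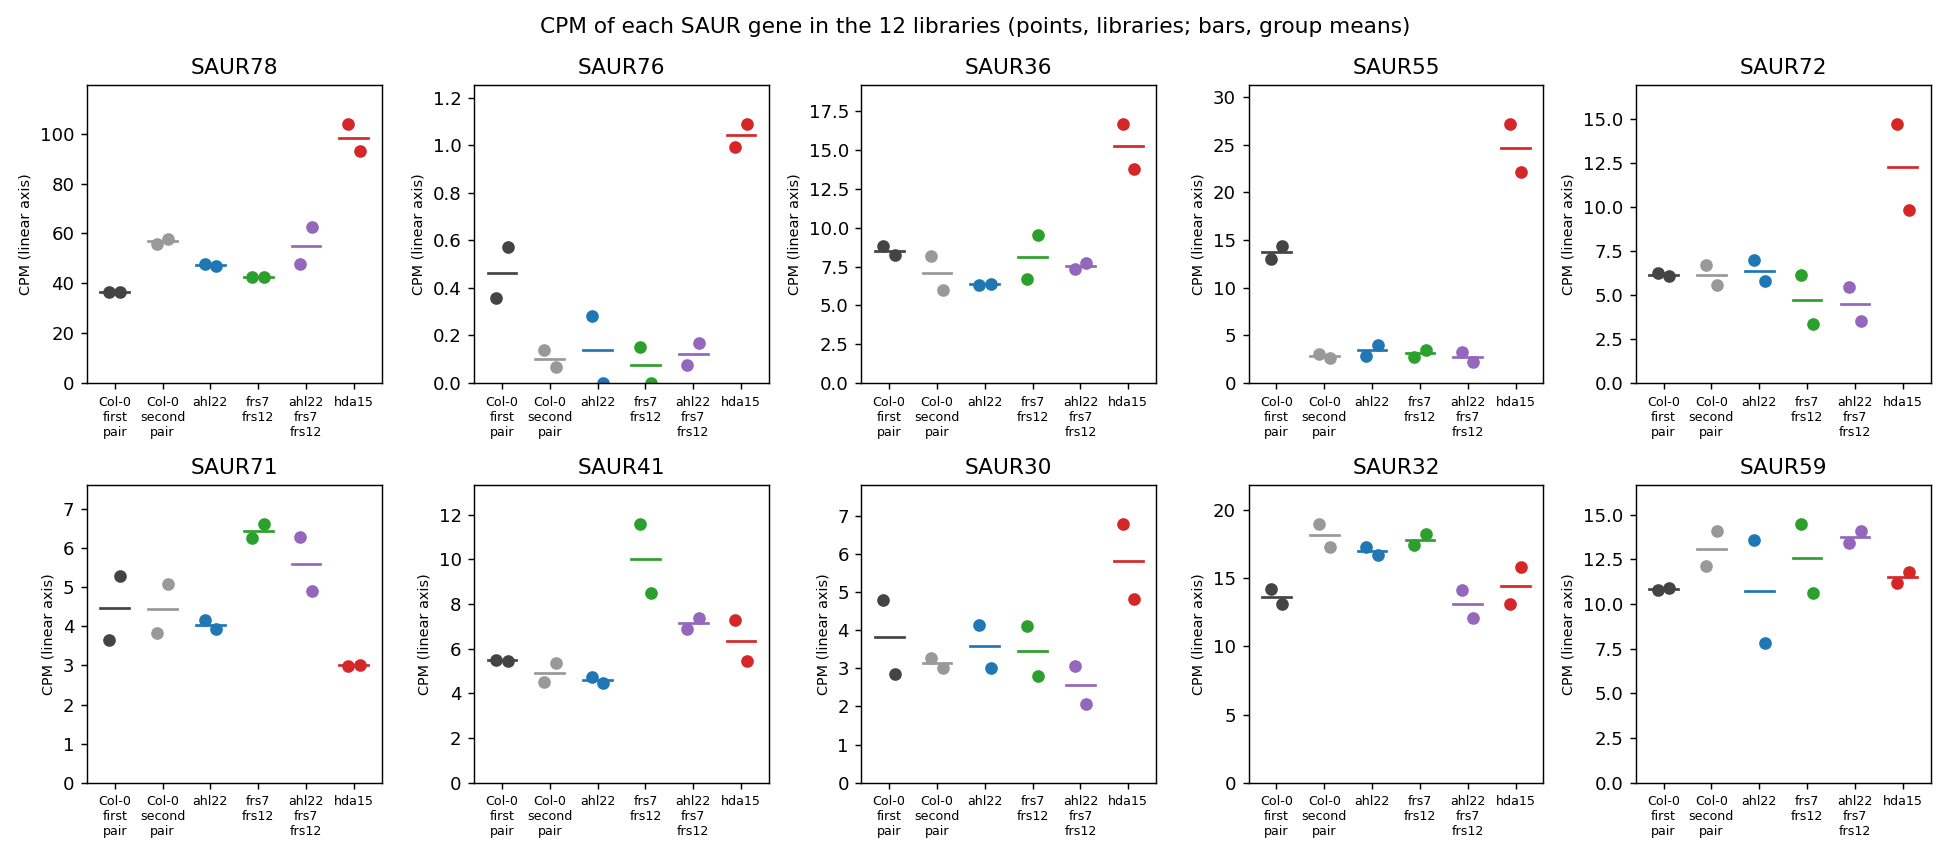
Level of each of the 10 genes in CPM (y axis, from 0) in each library, by genotype (x axis); each point is 1 library and each bar the mean of 2. In SAUR78 the hda15 libraries sit at 104 and 92.9 CPM and the other 10 between 36.5 and 62.4 CPM, and in SAUR55 the first Col-0 pair and hda15 sit above the remaining groups.

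The mutated genes were read first, as a check of the labels. *HDA15* had 3.56 and 3.56 CPM in *hda15* and 33.9 to 56.5 CPM elsewhere. *FRS12* had 3.60 to 4.18 CPM in the libraries of *frs7 frs12* and *ahl22 frs7 frs12* and 28.0 to 37.9 CPM elsewhere. *AHL22* had 12 and 17 counts in *ahl22* and 13 and 20 counts in *ahl22 frs7 frs12*, but it also had 23 and 26 counts in *frs7 frs12* and 43 and 46 counts in the second Col-0 pair, against 259 and 206 counts in the first pair and 302 and 198 counts in *hda15*. *AHL22* thus did not separate *ahl22* from the second Col-0 pair by the margin it had against the first pair. *FRS7* differed less than *FRS12*, with 8.01 to 11.4 CPM in its mutants against 13.7 to 20.4 CPM elsewhere.

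The Col-0 pairs differed from each other, which bears on each comparison with Col-0. A gene is called here at an adjusted p below 0.05 from the quasi-likelihood test of edgeR, adjusted by Benjamini-Hochberg over the genes tested, and an absolute log2 fold change above 1. Between the Col-0 pairs, 16.5% of genes tested were called, and 1 of the 9 SAUR genes tested was called, namely *SAUR55*. *SAUR55* had 13.0 and 14.4 CPM in the first pair and 3.06 and 2.67 CPM in the second pair, a log2 fold change of -2.24 (SE 0.223, adjusted p = 1.22e-06). *SAUR78* had 36.6 and 36.5 CPM in the first pair and 55.9 and 57.9 CPM in the second pair (log2 fold change 0.65, SE 0.103, adjusted p = 0.000109), which is under the fold threshold. *SAUR32* went the same way, at 14.2 and 13.1 against 19.0 and 17.3 CPM (0.42, SE 0.152, adjusted p = 0.0330), and the other 6 genes tested had adjusted p of 0.181 or more.

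Root markers differed between the same libraries. The 12 root markers, among them *CASP1* and *CASP2* of the endodermis, *PIN2* of the root tip, and *IRT1* and *PHT1;1* of iron and phosphate uptake, summed to 450 and 471 CPM in the first Col-0 pair, to 261 and 245 CPM in *hda15* and to 48.2 to 73.7 CPM in the other 8 libraries. In the second Col-0 pair *IRT1* and *NRT2.1* were at 0 in both libraries, and 10 of 11 markers tested were called lower than in the first pair, with *PHT1;1* at a log2 fold change of -4.38. The 8 stomatal lineage markers went the other way, with 121 and 112 CPM in the first pair against 171 to 310 CPM in the rest. In whole seedlings, fewer cells of a type and less RNA per cell cannot be told apart, and the part of tissue composition in the SAUR values was not tested.

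The comparison of *hda15* with Col-0 asks which genes differed in level in this line. In *hda15* against the first Col-0 pair, *SAUR78* and *SAUR72* rose, *SAUR36* and *SAUR55* passed the adjusted p with a smaller fold, and the other 6 did not pass. *SAUR78* had 104 and 92.9 CPM in *hda15* against 36.6 and 36.5 CPM, a log2 fold change of 1.43 (SE 0.132, adjusted p = 2.04e-06). *SAUR72* had 14.7 and 9.79 CPM against 6.23 and 6.04 CPM (1.00, SE 0.231, adjusted p = 0.00489). The *hda15* libraries of *SAUR72* lay far apart, and its fold was at the threshold. Without *hda15* replicate 1 its log2 fold change was 0.67 and without replicate 2 of the first pair 0.98, both under the threshold. With all 4 Col-0 libraries as 1 group the adjusted p of *SAUR72* was 0.0504. *SAUR36* had 16.7 and 13.8 CPM in *hda15* and 8.80 and 8.24 CPM in Col-0 (0.85, SE 0.192, adjusted p = 0.00447). *SAUR55* had 27.2 and 22.1 CPM against 13.0 and 14.4 CPM (0.86, SE 0.172, adjusted p = 0.00187). In *SAUR78*, *SAUR72*, *SAUR36* and *SAUR55*, each *hda15* library was above each library of the first Col-0 pair. The same held for *SAUR30*, *SAUR59* and *SAUR76*, which did not pass, so it does not set the former genes apart. The share of all genes with such a separation was not counted. *SAUR76* had 19 and 18 counts in *hda15* and 5 and 7 counts in the first pair (log2 fold change 1.17, SE 0.550, adjusted p = 0.135).

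Thus 2 of the 10 genes were called, both higher, where 7.70% of all genes tested were called (4.05% higher). Their median log2 fold change was 0.72, against 0.00 over all genes, and 9 of the 10 were above 0. The exception was *SAUR71*, the closest relative of *SAUR72*, with 2.98 and 3.02 CPM in *hda15* and 3.65 and 5.30 CPM in Col-0 (-0.57, SE 0.296, adjusted p = 0.177). *SAUR32*, *SAUR41* and *SAUR59* had log2 fold changes of 0.08, 0.22 and 0.09, with adjusted p of 0.551 or more, and *SAUR30* one of 0.60 (SE 0.293, adjusted p = 0.148).

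The other groups serve as further references for *hda15*. Against the second Col-0 pair, 4 of the 10 genes were called, all higher (background 11.4%): *SAUR55*, *SAUR76*, *SAUR36* and *SAUR72*. *SAUR76* passed the count filter of this fit only through *hda15*. With at least 10 counts required in every library, which leaves it out, 3 genes were called. *SAUR36* had 8.21 and 6.00 CPM in that pair (log2 fold change 1.11, SE 0.225, adjusted p = 0.00299), and *SAUR72* 6.68 and 5.54 CPM (1.01, SE 0.249, adjusted p = 0.00950). In both genes the *hda15* libraries were above this pair, as also in *SAUR30*, *SAUR41*, *SAUR55*, *SAUR76* and *SAUR78*. The share of all genes for which this held was again not counted. Without *hda15* replicate 1, *SAUR55* alone was called, and without replicate 2 of that pair *SAUR55* and *SAUR76* were. *SAUR78* was higher by a log2 fold change of 0.79 (SE 0.135, adjusted p = 0.000933), under the fold threshold, since that pair was itself above the first pair.

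**Figure D2:**
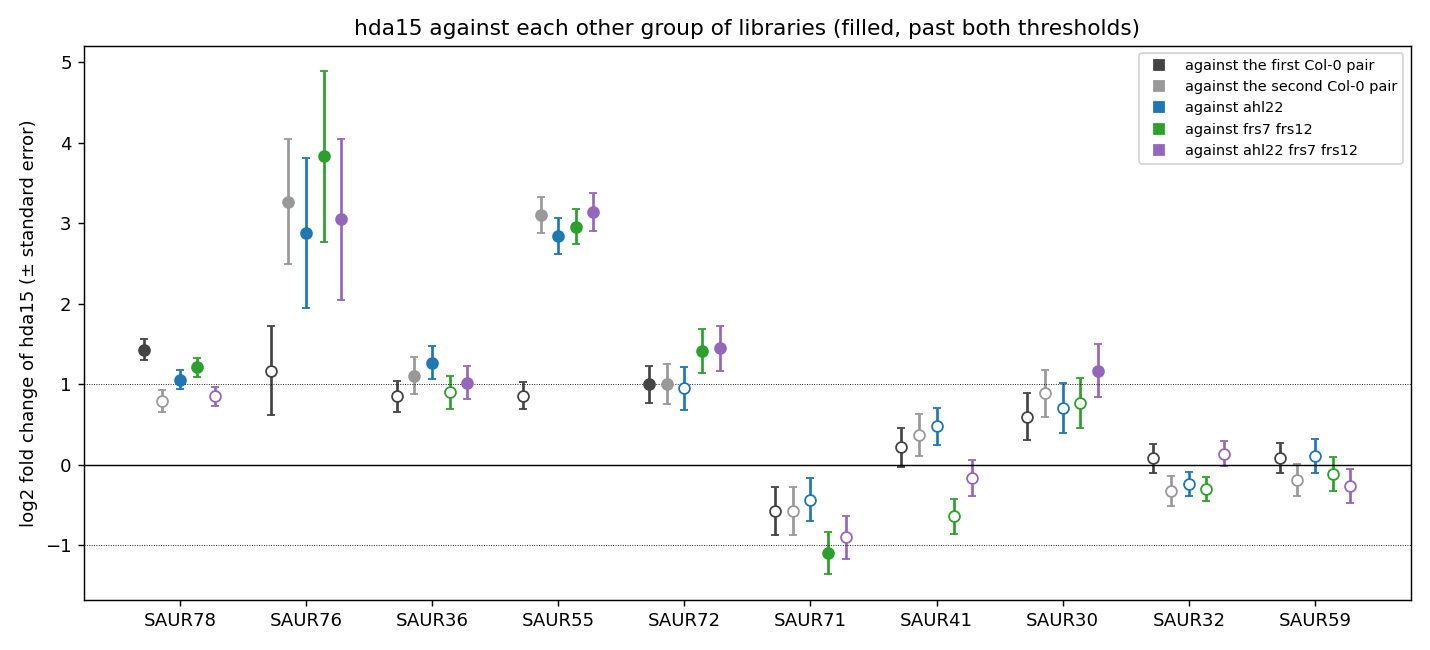
Log2 fold change of hda15 (y axis) for each of the 10 genes (x axis) against either Col-0 pair and against each other mutant; bars are ± 1 SE and filled points pass both thresholds. SAUR78 lies between 0.79 and 1.43 and SAUR72 between 0.95 and 1.45, while SAUR71 lies between -1.10 and -0.43.

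Direct comparisons with the other mutants contain no Col-0 library. In *hda15* against *ahl22*, 4 of 10 genes were called (*SAUR36*, *SAUR55*, *SAUR76* and *SAUR78*, all higher; background 15.4%). Against *frs7 frs12*, 5 of 10 were called (background 15.4%), with *SAUR55*, *SAUR72*, *SAUR76* and *SAUR78* higher and *SAUR71* lower. Against *ahl22 frs7 frs12*, 5 of 10 were called, all higher (background 13.3%), namely *SAUR30*, *SAUR36*, *SAUR55*, *SAUR72* and *SAUR76*. *SAUR76* again passed the count filter only through *hda15*. With at least 10 counts required in every library, 3, 4 and 4 genes were called against these mutants in turn. *SAUR78* differed from the 3 mutants by log2 fold changes of 1.06, 1.21 and 0.85, each with an SE of 0.113 and adjusted p of 1.79e-07, 3.15e-08 and 4.86e-06. It had 47.7 and 46.8 CPM in *ahl22*, 42.5 and 42.6 CPM in *frs7 frs12*, and for *ahl22 frs7 frs12* 47.6 and 62.4 CPM, all below *hda15*. *SAUR72* had 6.96 and 5.76, 6.10 and 3.34, and 5.47 and 3.49 CPM in these mutants (log2 fold changes of *hda15* 0.95, 1.41 and 1.45). Without *hda15* replicate 1, 2 of 10 genes were called against *ahl22* (*SAUR36* and *SAUR55*) and 2 of 10 against *ahl22 frs7 frs12* (*SAUR55* and *SAUR72*).

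Over all 12 libraries, both *hda15* libraries were above the 10 others in 6 of the 10 genes (*SAUR30*, *SAUR36*, *SAUR55*, *SAUR72*, *SAUR76* and *SAUR78*), where 9.19% of all genes were. Of these, *SAUR76* passed the count filter only through *hda15*. In *SAUR71* both *hda15* libraries were below the 10 others, as were 7.88% of all genes. These counts describe the libraries and carry no test, and the *hda15* comparisons share the *hda15* libraries. *SAUR30* had 6.80 and 4.83 CPM in *hda15* and 2.07 to 4.79 CPM in the rest, so that the lower *hda15* library was barely above the highest of the others. *SAUR32* and *SAUR59* had no group apart from the rest, at 12.1 to 19.0 and 7.83 to 14.5 CPM over the 12 libraries.

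*SAUR55* and *SAUR76*, like the summed root markers, were higher in the first Col-0 pair and *hda15* than in the other 8 libraries. They differed from the root markers in the order of the first Col-0 pair and *hda15*, and *SAUR76* had few counts. *SAUR55* had 2.24 to 3.94 CPM in the 8 libraries of the second Col-0 pair and of the mutants other than *hda15*, whose root markers summed to at most 73.7 CPM. It had 13.0 and 14.4 CPM in the first Col-0 pair and 27.2 and 22.1 CPM in *hda15*. The log2 fold change of *hda15* was 3.10 (SE 0.226, adjusted p = 1.24e-06) against the second Col-0 pair, 2.84 against *ahl22*, 2.96 against *frs7 frs12* and 3.14 against *ahl22 frs7 frs12*. In these 4 comparisons 7 to 10 of 11 root markers were called higher in *hda15*, with median log2 fold changes of 2.09 to 2.72. Against the first Col-0 pair, however, the root markers were lower in *hda15* (median -0.39), with 1 of 11 called (*PHT1;1*, 137 and 136 CPM in *hda15* against 289 and 299 CPM), while *SAUR55* was higher. The order of the groups thus differed, with the root markers highest in the first Col-0 pair and *SAUR55* highest in *hda15*. The part of root tissue in the values of *SAUR55* was not tested.

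*SAUR76* had 2 and 1 counts in the second Col-0 pair, 4 and 0 in *ahl22*, 1 and 2 in *ahl22 frs7 frs12*, 2 and 0 in *frs7 frs12*, 5 and 7 in the first Col-0 pair and 19 and 18 in *hda15*. Scaled to library size, its sum in *hda15* was 2.27 times that in the first pair (95% exact binomial interval 1.16 to 4.78), 10.3 times that in the second pair (3.25 to 52.1), 7.83 times that in *ahl22* (2.81 to 30.2), 16.1 times that in *frs7 frs12* (4.16 to 138) and 8.78 times that in *ahl22 frs7 frs12* (2.78 to 44.5). These intervals cover counting error only. The fitted changes were called against the 4 groups with the fewest counts (adjusted p 0.00592 to 0.0195), but each of these calls was lost without some single library. Against the second Col-0 pair it was lost without either *hda15* library (adjusted p = 0.0882 and 0.0915). Against *ahl22* it was lost without either *hda15* library (0.0655 and 0.0719 as adjusted p) and without *ahl22* replicate 2 (log2 fold change 1.84 in place of 2.88, adjusted p = 0.208), and against *frs7 frs12* without replicate 2 of that mutant (2.70, adjusted p = 0.0973). Against *ahl22 frs7 frs12* it was lost without any 1 of the 4 libraries (adjusted p 0.0657 to 0.150). By DESeq2 it was not called against *ahl22* (adjusted p = 0.0729) or *ahl22 frs7 frs12* (adjusted p = 0.0727). Without *hda15*, the counts of *SAUR76* were too few for it to be tested against Col-0.

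**Figure D3:**
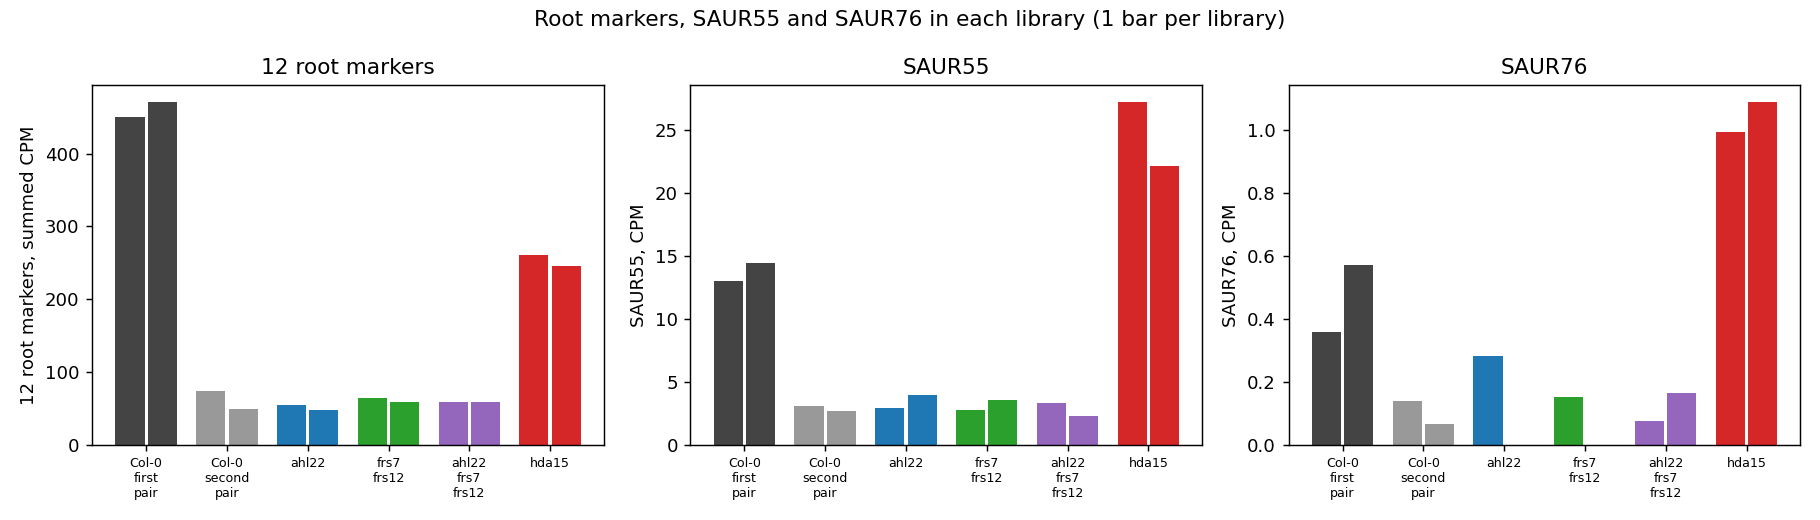
Summed level of 12 root markers, level of SAUR55 and level of SAUR76 in CPM (y axes, from 0) in each of the 12 libraries (x axis, grouped by genotype); each bar is 1 library. The root markers are highest in the first Col-0 pair (450 and 471 CPM), whereas SAUR55 and SAUR76 are highest in hda15.

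In *ahl22* and *frs7 frs12* against the first Col-0 pair, *SAUR55* alone was called, 1 of 9 genes tested in each (background 18.2% and 18.8%). It had 2.88 and 3.94 CPM in *ahl22* (log2 fold change -1.98, SE 0.210, adjusted p = 2.82e-10) and 2.74 and 3.51 CPM in *frs7 frs12* (-2.10, SE 0.217, adjusted p = 1.95e-08). Against the second Col-0 pair, its log2 fold changes were 0.28 (adjusted p = 0.679) and 0.14 (adjusted p = 0.888), and with all 4 Col-0 libraries as 1 group they were -1.26 and -1.38 (adjusted p = 0.324 and 0.270). The fall of *SAUR55* therefore depended on the Col-0 pair used. Root markers fell with it, with 11 of 11 called lower in *ahl22* and 10 of 11 in *frs7 frs12* against the first pair, and 1 of 6 and 0 of 7 lower against the second pair. In *ahl22* *SAUR78* passed the adjusted p alone against the first pair (0.38, SE 0.0929, adjusted p = 0.000734), and against the second pair its value was -0.25 (adjusted p = 0.124). In *frs7 frs12* its value was likewise 0.22 (adjusted p = 0.0796) against the first pair and -0.42 (SE 0.101, adjusted p = 0.0203) against the second, so that its sign turned with the Col-0 pair. In *ahl22* against the second Col-0 pair 0 of 9 genes were called (background 0.758%), with 0 at an adjusted p below 0.05 alone (background 6.30%) and 0 by DESeq2.

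*SAUR41*, which promotes cell expansion when overexpressed, was the gene of the 10 that stood apart in *frs7 frs12*. It had 11.6 and 8.47 CPM there and 4.45 to 7.39 CPM in the 10 other libraries, so that *frs7 frs12* did not overlap with the rest, as in 3.26% of all genes. Its log2 fold change was 0.86 (SE 0.217, adjusted p = 0.00188) against the first Col-0 pair, 1.01 (SE 0.236, adjusted p = 0.0166) against the second pair and 1.12 (SE 0.228, adjusted p = 0.00486) against *ahl22*. It was the 1 of 9 genes called against the second pair (background 1.73%) and the 1 of 10 called against *ahl22* (background 1.28%). The *frs7 frs12* libraries lay apart, and without replicate 1 of this mutant the latter values were 0.78 (adjusted p = 0.220) and 0.86 (adjusted p = 0.129), while without replicate 2 the value against the first Col-0 pair was 1.08, past the threshold. Against the second Col-0 pair the call was also lost without replicate 1 of that pair (0.90), and against *ahl22* without either *ahl22* library (adjusted p = 0.0549 and 0.0980). In *ahl22 frs7 frs12*, which also carries the *frs7* and *frs12* mutations, *SAUR41* had 6.89 and 7.39 CPM (0.52 against its own Col-0 pair, adjusted p = 0.267, and -0.48 against *frs7 frs12*, adjusted p = 0.268).

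*SAUR71* was also highest in *frs7 frs12*, at 6.25 and 6.63 CPM, but *ahl22 frs7 frs12*, at 6.29 and 4.90 CPM, overlapped with it. Its value against the first Col-0 pair was 0.54 (SE 0.255, adjusted p = 0.0790). It was called only between the extremes, *hda15* against *frs7 frs12* (-1.10, SE 0.261, adjusted p = 0.00177). The group means of *SAUR71* and *SAUR72* thus had nearly opposite orders although they are the most alike of the 10 proteins, with *SAUR72* lowest in the mutants where *SAUR71* was high. Outside *hda15* these differences from Col-0 did not pass. *SAUR72* had -0.41 in *frs7 frs12* against the first Col-0 pair (adjusted p = 0.222). In *ahl22 frs7 frs12* against its own pair, *SAUR72* had -0.46 (adjusted p = 0.417) and *SAUR71* 0.31 (adjusted p = 0.599). Over the 12 libraries, Pearson's r of log2(CPM + 1) between *SAUR71* and *SAUR72* was -0.745, given as a description because the libraries share genotypes.

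Compared with the second Col-0 pair, which is that of its table, *ahl22 frs7 frs12* had 0 of 9 genes called by edgeR's quasi-likelihood test (background 1.45%), 0 at an adjusted p below 0.05 alone (background 6.27%) and 0 by DESeq2. The closest was *SAUR32*, with 14.1 and 12.1 CPM against 19.0 and 17.3 CPM (-0.48, SE 0.159, adjusted p = 0.0961). Against the first Col-0 pair *SAUR55* was called (-2.28, SE 0.236, adjusted p = 6.56e-11), 1 of 9 genes where 20.4% of all genes were called. *SAUR78* there had a value of 0.59 (SE 0.108, adjusted p = 1.20e-05), and its value against its own Col-0 pair was -0.07 (SE 0.117, adjusted p = 0.820). In *ahl22 frs7 frs12* against *ahl22* and against *frs7 frs12*, 0 of the 10 genes were called in each (background 2.13% and 0.766%), and DESeq2 called 0 as well. The effect of *ahl22* within *frs7 frs12* differed from that in Col-0 at an adjusted p below 0.05 in 2 of 10 genes with the first Col-0 pair (background 34.0%) and in 1 of 10 with the second (background 8.54%), 0 of them with both pairs.

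The 70 other SAUR genes are given beside these 10 as counts and medians, and the difference between them was not tested. Against the first Col-0 pair, 25 of 47 other SAUR genes tested were called higher and 3 lower in *ahl22* (median log2 fold change 1.06), and 24 of 49 higher and 2 lower in *frs7 frs12* (median 1.02), whereas 0 of the 9 were called higher and 1 lower. With the second Col-0 pair as reference 0 of 47 and 0 of 49 were called in these mutants (medians -0.13 and -0.20), and between the Col-0 pairs 28 of 48 were higher and 2 lower, so these calls depended on the Col-0 pair. In *hda15*, 3 of 47 other SAUR genes were called higher and 1 lower (median 0.14, against 0.72 over the 10) with the first pair, and 1 of 48 higher and 23 lower (median -0.99, against 0.84) with the second. In *hda15* against *ahl22 frs7 frs12*, 3 of 52 were higher and 27 lower (median -1.08), against 5 higher and 0 lower of the 10 (median 0.93). The latter 5 include *SAUR76*, which passed the count filter only through *hda15*. The summed level of the other SAUR genes was 267 and 257 CPM in the first Col-0 pair, 310 and 276 CPM in *hda15* and 555 to 679 CPM in the other 8 libraries. The latter are the 8 libraries with root marker sums of at most 73.7 CPM.

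**Figure D4:**
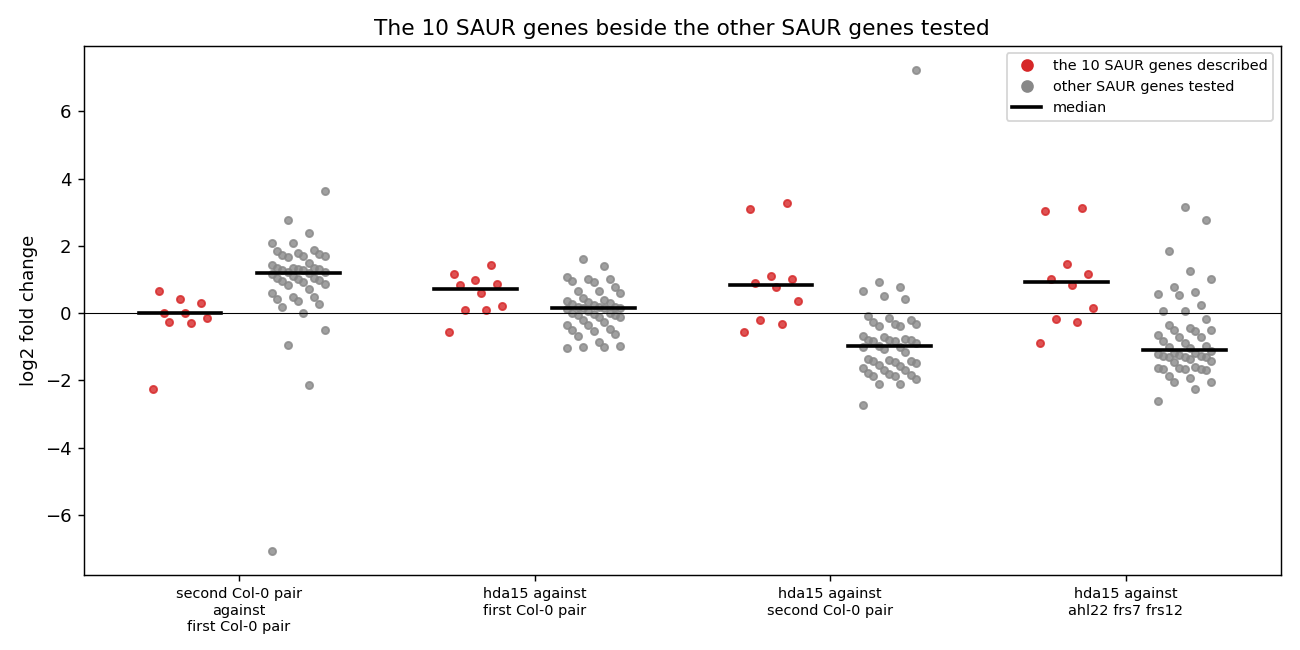
Log2 fold change (y axis) of the 10 genes and of the other SAUR genes tested in the Col-0 pairs against each other and in hda15 against the Col-0 pairs and ahl22 frs7 frs12 (x axis); each point is 1 gene and each line a median. In hda15 the median of the 10 genes lies above that of the others in each comparison (0.72 against 0.14 with the first Col-0 pair), and between the Col-0 pairs the others have a median of 1.20.

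The relatives of these genes by sequence were mostly too low to follow. *SAUR77*, the closest relative of *SAUR78* and part of the same ethylene-related group, had 21 and 18 counts in *hda15* and 12 to 30 counts elsewhere (log2 fold change -0.62 against the first Col-0 pair, SE 0.427, adjusted p = 0.312), and so did not pass the test where *SAUR78* rose. *SAUR40* had 0 to 3 counts per library. *SAUR31*, the closest relative of *SAUR32* outside the 10, had a value of -0.12 in *hda15* (adjusted p = 0.768).

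The pathways these genes are known from were read from lists of their other members. Of 22 abscisic acid response genes tested in *hda15* against the first Col-0 pair, 4 were called higher and 3 lower (background 7.70%). With the second pair, 6 of 22 were higher and 0 lower (background 11.4%). The largest changes were those of *KIN1*, a cold- and abscisic acid-induced gene (log2 fold change 3.46, adjusted p = 2.50e-06), and *RD20*, a drought-induced caleosin (3.21, adjusted p = 0.000184), which with the second pair were 1.97 (adjusted p = 0.00476) and 0.96 (adjusted p = 0.0521). The list of 26 genes summed to 1084 and 1162 CPM in *hda15* and to 560 to 755 CPM in the other 10 libraries. In *hda15* against *ahl22 frs7 frs12*, 7 of 23 were called higher and 0 lower (background 13.3%). Of 16 leaf senescence genes, 1 was called higher (*SAG14*, 1.20, adjusted p = 5.20e-05) and 2 lower, among them the dark-induced *SEN1* (-2.10, adjusted p = 3.22e-07), while *SAUR36* was higher by 0.85. The direction of this list depended on the reference. With the second Col-0 pair 3 of 16 were higher and 0 lower. With each other mutant as reference 4 were higher and 1 lower (background 13.3% to 15.4%). *SAG14* was called higher in *hda15* against all 5 references (1.20 to 2.17), and *SEN1* was at -0.66 (adjusted p = 0.0172) with the second pair, under the fold threshold. The senescence list summed to 580 and 570 CPM in *hda15* and to 600 to 958 CPM elsewhere. Of 18 ethylene genes and 9 PP2C.D phosphatases, 0 were called in *hda15* against the first pair, with 4 ethylene genes higher and 1 lower, and 3 phosphatase genes higher, at an adjusted p below 0.05 alone, and 1 ethylene gene was called higher against the second pair.

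In *frs7 frs12* against the first Col-0 pair, 3 of 18 ethylene genes were called higher, with the receptor gene *ETR2* at 1.18 (adjusted p = 9.45e-10) and the ACC synthase gene *ACS8* at 1.14 (adjusted p = 1.59e-07), and *PP2C.D1* was the 1 of 9 phosphatase genes called, at 1.01 (adjusted p = 2.78e-10), where 18.8% of all genes were called. With the second Col-0 pair 0 of 18 and 0 of 9 were called, and these 3 genes had values of 0.67, 0.66 and 0.42 (adjusted p = 0.00165, 0.00594 and 0.0268), under the fold threshold. Of the abscisic acid genes, 1 of 21 was higher and 6 lower in *frs7 frs12*, and 2 of 22 were higher and 5 lower in *ahl22* (background 18.2%), against the first pair. With the second pair, 0 were lower in either mutant, and 0 and 2 were higher. Of the senescence genes, 4 and 5 of 16 were lower and 0 higher against the first pair, and 0 of 15 lower in either mutant against the second, with 1 higher in *frs7 frs12* (*SEN1*, 1.27, adjusted p = 2.19e-05). Between the Col-0 pairs themselves, 5 of 23 abscisic acid genes and 5 of 16 senescence genes were called lower (background 16.5%). The lower calls thus depended on the Col-0 pair. In *ahl22 frs7 frs12* against its own Col-0 pair, 1 gene of these lists was called, *ATHB7* (-1.32, adjusted p = 0.0169), a homeobox gene of the abscisic acid response. It is the nearest annotated protein-coding gene on 1 side of *SAUR32*, 13737 bases away. Against the first pair, 9 of 20 abscisic acid and 5 of 16 senescence genes were lower in *ahl22 frs7 frs12*, where 20.4% of all genes were called. The 10 shoot markers summed to 104109 and 86975 CPM in *hda15* and to 65151 to 93143 CPM elsewhere, with 0 called in *hda15* against the first pair and 7 higher at an adjusted p below 0.05.

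The nearest annotated protein-coding genes on either side of each SAUR gene were read as well. In *hda15* against the first Col-0 pair, 0 of the annotated neighbours tested were called. Those of *SAUR78* had values of 0.10 (*EDA25*, adjusted p = 0.743) and 0.42 (AT1G72420, adjusted p = 0.478). *SUS1*, a sucrose synthase gene beside *SAUR76*, had 0.58 (adjusted p = 0.0140), and AT1G56145 beside *SAUR71* had -0.65 (adjusted p = 0.0124). *SAUR36* lies 84.77 kb from *AHL22* on chromosome 2, and its value in *ahl22* was -0.42 (SE 0.202, adjusted p = 0.0761). Its neighbour AT2G45220, a pectin methylesterase inhibitor family gene, had a value of -3.58 in *ahl22* (adjusted p = 1.16e-17) but also of -3.52 between the Col-0 pairs (adjusted p = 3.80e-08) and of -0.03 in *ahl22* against the second pair. *SAUR32* lies 451.4 kb from *AHL22*, and *SAUR76* 713.1 kb from *FRS12*.

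The gene whose level was most like that of each of the 9 genes with a mean of at least 1 CPM was sought among 14263 genes by Pearson's r of log2(CPM + 1) over the 12 libraries. *SAUR55* was most like *SCL3* (r = 0.987), a scarecrow-like gene, and *SAUR78* most like *KCR1* (r = 0.969), a beta-ketoacyl reductase gene of fatty acid elongation. *SAUR72* was most like AT5G20740 (r = 0.945), *SAUR36* like *SR30* (0.943), *SAUR41* like *UGT72E1* (0.943), *SAUR32* like AT4G34560 (0.941), *SAUR30* like AT5G24610 (0.930), *SAUR71* like *UBC5* (0.903) and *SAUR59* like AT1G03440 (0.815). Each r is the highest of many and describes libraries that share genotypes and depth. Among the 10 genes themselves, the highest r was that of *SAUR55* and *SAUR76* (0.902), followed by *SAUR30* and *SAUR72* (0.884), *SAUR36* and *SAUR55* (0.825) and *SAUR36* and *SAUR76* (0.809).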

How the data were processed

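RNA-seq was done on whole seedlings of 5 genotypes. Raw counts per gene, not normalized, were deposited by the authors in 4 tables, made with HISAT2 on TAIR10 and with Subread. Their 16 library columns hold 12 distinct libraries, and 0 columns of other samples were used. The MAR-seq samples were not analysed here. The labels describe sowing in soil and 2 biological replicates, without saying what separated them, and the study's methods describe plates.

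The SAUR genes and all lists were chosen with earlier results of these data known. Each mutant was set against either Col-0 pair in separate fits, and against the other mutants in 1 fit of all 12 libraries that kept the Col-0 pairs apart. edgeR 4.0.16 (R 4.3.3) was used with filterByExpr, TMM scaling, the quasi-likelihood test and Benjamini-Hochberg adjustment, and genes were called at an adjusted p below 0.05 and an absolute log2 fold change above 1. Each SE is the absolute log2 fold change divided by the square root of the F value of that test. The effect of *ahl22* within *frs7 frs12* against that in Col-0 was tested as an interaction at an adjusted p below 0.05 alone. Steps were tested on simulated data. The pseudocount for r was 1. DESeq2 1.42.0, other scalings and filters, other Col-0 groupings, a replicate block and leaving out each library were tried as alternatives. Of 27416 genes, 26719 were matched to TAIR10.1, which gave coordinates, lengths, promoters and proteins; transcripts were compared with blastn 2.17.0. Named besides the 10 genes are the mutated genes, the closest SAUR proteins, neighbours, the most alike gene of each, and per list the called genes of largest change (at most 2). Depth was 12537767 to 21400580 counts per library. P-values measure only the spread between libraries of the same group, with 2 libraries a group, which edgeR moderates over all genes. The comparisons between mutants and the interactions share 1 estimate of that spread from all 12 libraries.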

Additional observations from a re-analysis of the deposited data

Results flagged for a closer look

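The effect of *ahl22* in the *frs7 frs12* background was compared with its effect in Col-0 by an interaction test in edgeR, with Benjamini-Hochberg adjustment over all genes. With the first Col-0 pair, 2 of 10 genes passed an adjusted p below 0.05, where 34.0% of all genes did: *SAUR55* with a difference of 1.81 on the log2 scale (SE 0.360, adjusted p = 0.000586) and *SAUR32* with -0.76 (SE 0.218, adjusted p = 0.0108). With the second Col-0 pair in its place, 1 of 10 passed, where 8.54% of all genes did, namely *SAUR78* with 0.64 (SE 0.163, adjusted p = 0.0169). Each difference was past the threshold with 1 Col-0 pair only. With the other pair, the value was -0.44 for *SAUR55* (adjusted p = 0.545), -0.35 for *SAUR32* (adjusted p = 0.365) and 0.00 for *SAUR78* (adjusted p = 1.00). For *SAUR78*, the adjusted p was 0.0665 and 0.0927 without *ahl22* replicate 1 or 2, 0.0697 and 0.0700 without *frs7 frs12* replicate 1 or 2, and 0.206 without *ahl22 frs7 frs12* replicate 2.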

How the results depend on the processing

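The alternatives held the Col-0 pair fixed or took all 4 Col-0 libraries as 1 group. No called change of the 10 genes reversed its direction under them. Of the single-gene values under the alternatives, 1619 kept their direction and their side of the adjusted p threshold of 0.05. The adjusted p rose past 0.05 in 66 values and fell below it in 17. The other 100 values changed direction. A call also needs the fold threshold, so these are not numbers of calls lost or gained. With no fold threshold, the count of the 10 genes called was 3 instead of 1 in *ahl22*, 3 instead of 1 in *frs7 frs12* and 4 instead of 2 in *hda15* against their own Col-0, 2 instead of 1 in *frs7 frs12* and 2 instead of 1 in *ahl22 frs7 frs12* against the other Col-0 pair, 3 instead of 1 between the Col-0 pairs, and 8 instead of 5 in *hda15* against *frs7 frs12*. With all 4 Col-0 libraries as 1 group it was 0 in *ahl22*, 0 in *frs7 frs12* and 1 in *hda15*, and over all genes 29, 182 and 413 were called in place of 3497, 3606 and 1482, in a fit whose spread also holds how far the Col-0 pairs differ. With DESeq2, *SAUR41* lost its call in *frs7 frs12* against the other pair, leaving 0 (1.02, adjusted p = 0.0583); the cause was not tested. Leaving out 1 library at a time, the count ranged from 1 to 2 in *frs7 frs12* and from 1 to 3 in *hda15* against their own Col-0, from 0 to 1 in *frs7 frs12* and from 1 to 4 in *hda15* against the other pair, from 0 to 1 in *frs7 frs12* against *ahl22*, from 2 to 5 in *hda15* against *ahl22* and against *ahl22 frs7 frs12*, and from 0 to 1 for the interaction with the second Col-0 pair. Where this left 1 library in a group, it was assumed to vary like the others. The labels do not say what a replicate number marks, and the deviations of same-numbered libraries correlated at -0.0195 to 0.196, so the numbers were not taken as pairing. With the replicate block the count in *hda15* against its own Col-0 was 1 instead of 2 (*SAUR72* at 0.99; 1561 instead of 1482 genes over all), and the counts of the 10 in *ahl22* and in *frs7 frs12* against that pair and in the 6 comparisons between mutants were the same. No block was fitted for *ahl22 frs7 frs12* against the first Col-0 pair or for the interactions. No paired analysis was possible for comparisons with the second Col-0 pair because its columns carry no replicate number of a sample. Depth limits *SAUR76*, *SAUR40* and *SAUR34* most, and 2 libraries a group limit every fold near the threshold.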
